A study of Mus musculus with 6 samples.

Results

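The p53 protein is a transcription factor that is stabilised when DNA is damaged or growth signals are abnormal, and it switches on genes that stop the cell cycle, repair damage or start apoptosis. Its amount is held down by the ubiquitin ligase Mdm2 and its activity by the related protein Mdm4, and Mdm2 is itself a p53 target, which closes a negative feedback loop. The genes described here are Trp53, which encodes mouse p53, its regulators Mdm2 and Mdm4, and 7 genes known as p53 targets (Ccng1, Sesn1, Zmat3, Gdf15, Phlda3, Eda2r and Trp53inp1). They were taken by gene symbol, and 10 of the 10 were found among the 18182 genes of the files.

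RNA sequencing had been performed on the mouse lung cancer line LLC (Lewis lung carcinoma), whose cells carried red fluorescent protein (RFP) and were sorted by flow cytometry from tumours under the skin of wild type C57BL/6 mice. The tumours were made with LLC-RFP cells alone in 3 libraries (LLC alone) and with LLC-RFP cells and bone marrow-derived mesenchymal stem cells in the other 3 libraries (LLC with BMSCs). All libraries thus shared the tumour line, the RFP marker and the host strain, and differed by the purchased C57BL/6 BMSCs in the inoculum. The methods state female mice, 6 weeks old, for the allografts of luciferase-labelled LLC cells, and name no other age for the RFP tumours. The number of mice behind each library was not given in the sources used here, so that p-values measure the spread between these libraries, which may be technical. Sequence variants were not analysed, and the mutation state of Trp53 in the line is therefore not known from these values. In bulk libraries of this kind, a smaller number of cells that express a gene and less RNA per cell cannot be told apart.

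Each library held 33476347 to 46189113 estimated fragment counts on genes. Levels are given here as FPKM (fragments per kilobase of transcript, scaled to library depth), and tests used the estimated counts with edgeR's quasi-likelihood test. Over the 13353 genes tested, 31.5% were called higher and 31.3% lower in LLC with BMSCs at an adjusted p under 0.05, so that a called change was common among all genes. LLC alone replicate 3 stood furthest apart by transcript length. Against the average library, its genes lay at a median of 0.31 (log2) in the fifth with the shortest transcripts and of -0.37 in the fifth with the longest. Values with this library left out, and with the length trend of every library removed, are given below where they move a result.

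The sorted cells were not all alike by their marker genes. The epithelial keratin gene Krt8 was at 90.3 to 113 FPKM in every library, and was called higher with BMSCs by 0.19 (log2, edgeR adjusted p = 0.0374). Of the 7 epithelial markers the only other one tested, Krt18, was also called higher, from 0.0833 ± 0.0503 to 0.653 ± 0.0321 FPKM (mean ± SD of 3 libraries), while Epcam and Cdh1 stayed at 0.04 FPKM or less. The sum of the epithelial list was 90.4 to 102 FPKM without BMSCs and 109 to 114 FPKM with them. Of 12 written markers of BMSCs or fibroblasts, 10 were tested and 10 were called higher with BMSCs, and their summed level went from 53.6 to 61.9 FPKM in LLC alone to 157 to 158 FPKM. Most of that sum was Col3a1, at 41.2 ± 3.82 FPKM in LLC alone and 100 ± 1.48 FPKM with BMSCs (mean ± SD of 3 libraries). Of 10 neutrophil markers, 6 were tested and 6 were called higher, with sums of 0.21 to 0.58 and 42.5 to 50.8 FPKM. Most of the neutrophil sum with BMSCs was S100a8 and S100a9, at 20.2 ± 2.20 and 22.4 ± 2.90 FPKM (mean ± SD of 3 libraries). Of 11 macrophage markers, 8 were tested, 6 were higher and 1 was lower, and the sums were 16.9 to 20.5 and 20.1 to 21.8 FPKM. Most of these sums was Cd14, Cd68 and Lyz2. Their means were 9.49, 5.55 and 3.08 FPKM in LLC alone and 10.1, 3.03 and 4.71 FPKM with BMSCs. Of the others called higher, Itgam went from 0.00667 ± 0.0115 to 1.17 ± 0.0252 FPKM and Adgre1 from 0 to 0.477 ± 0.0737 FPKM (mean ± SD of 3 libraries). Ptprc, Mrc1 and Csf1r were also called higher, at 0.6 FPKM or less in every library. Some listed genes were at 0 in the 3 libraries of LLC alone and above 0 in at least 1 library with BMSCs. They were Thy1 and Cxcl12 (stromal), Adgre1, C1qa and C1qc (macrophage), Mpo and Elane (neutrophil), Nkg7 (T and NK cell), Emcn (endothelial) and Krt19 (epithelial). Thy1, Nkg7 and Emcn reached no more than 0.03 FPKM. Other genes of these lists did not follow this. C1qb and Ly6g were at 0.11 FPKM or less in both groups and overlapped, and Cd68 was the macrophage gene called lower (log2 fold change -0.89). Erythroid markers summed to 2.41 to 3.27 FPKM and 7.88 to 9.62 FPKM, with 3 of 5 tested genes higher and 1 lower. Of the T and NK cell list and the B cell list no gene passed the filter for testing, and of the endothelial list 1 gene was tested and not called. The part of these cells in the results below was not tested.

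Among Trp53, its 2 inhibitors and the 7 targets, 2 genes rose, 4 fell and 4 were not called when LLC cells came from tumours with BMSCs. Ccng1 and Mdm4 rose by less than 2-fold. Gdf15 fell 8.45-fold, Eda2r 2.54-fold, Trp53inp1 1.86-fold and Sesn1 1.66-fold. Trp53 itself, Mdm2, Zmat3 and Phlda3 were not called. Of the 10 genes 60% were called, against 62.9% of all genes tested. The calls made up 20% (higher) and 40% (lower) of the 10 genes, against 31.5% and 31.3% of all genes tested, and their median log2 fold change was -0.10, against 0.01 for all genes tested. With 10 genes, these shares of calls lie near the background. By a log2 fold change of 1 or more, 2 of the 10 fell, Gdf15 and Eda2r, and 0 rose. Of all tested genes 7.17% fell and 8.65% rose by that much, so the share of large falls was above the background, on 2 genes. The 10 genes were chosen with earlier results of these data known, so this is a description and not a test.

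**Figure D1:**
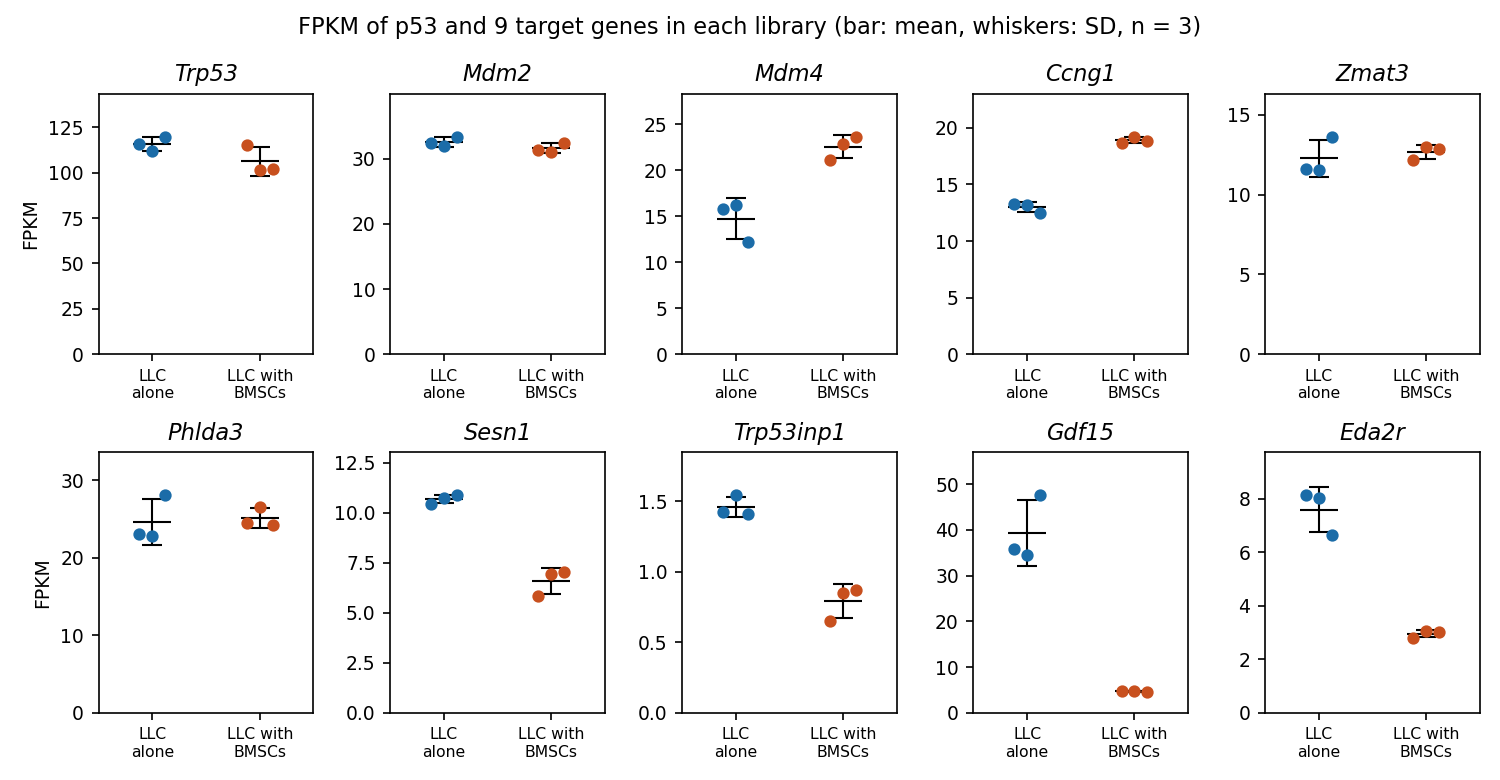
FPKM (vertical axis, from 0, a scale for each gene) of Trp53 and the 9 other genes in the 3 libraries of LLC alone (blue) and the 3 of LLC with BMSCs (orange). Points are libraries, the horizontal bar is the mean and the whiskers are the SD. The groups part completely for Mdm4, Ccng1, Sesn1, Trp53inp1, Gdf15 and Eda2r, and overlap for Trp53, Mdm2, Zmat3 and Phlda3.

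Trp53 (NCBI gene 22059) lies on the plus strand of chromosome 11 from 69580359 to 69591873 in GENCODE M21 on GRCm38, and it was the most abundant of the 10 genes in both groups. In order of replicate, its FPKM read 116, 112 and 119.7 without BMSCs and 115, 101 and 102 with them. The third library of LLC alone was the highest and the groups overlapped through replicate 1 of LLC with BMSCs. The means were 116 ± 3.96 and 106 ± 7.95 FPKM (mean ± SD of 3 libraries). The fitted log2 change was -0.14 with a standard error of 0.073 (edgeR adjusted p = 0.119), and it was not called. This rested in part on 1 library, because without LLC with BMSCs replicate 1 the value was -0.21 and was called (edgeR adjusted p = 0.0263). With the length trend removed it was -0.0036 (edgeR adjusted p = 0.963).

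The files divide Trp53 between 2 RefSeq transcripts that share a start site and differ in their coding end. NM_011640 matches a GENCODE transcript of 390 codons and took 92.8% ± 0.796 of the gene's FPKM in LLC alone and 92.3% ± 1.49 in LLC with BMSCs (mean ± SD of 3 libraries). NM_001127233, with 381 codons, took the rest, at 8.30 ± 0.930 and 8.17 ± 1.96 FPKM (mean ± SD of 3 libraries). The shares overlapped between the groups (two-sided exact permutation p = 0.6). With 3 libraries a side, the smallest p that this exact test can give is 0.1.

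Mdm2 (NCBI gene 17246, minus strand of chromosome 10, 117688875 to 117710758) encodes the ubiquitin ligase that marks p53 for degradation. Without BMSCs its libraries stood at 32.3, 31.9 and 33.3 FPKM in replicate order, and with BMSCs at 31.3, 31.0 and 32.5 FPKM. The values lay close together in all 6 libraries, and the groups overlapped. In edgeR the log2 change was -0.064 with a standard error of 0.054 (adjusted p = 0.327), and over the alternative settings it ran from -0.094 to -0.040 and was not called in any of them. Its transcripts NM_010786 and NM_001288586, which match the same GENCODE transcript of 489 codons, held 72.2% ± 2.27 and 27.8% ± 2.27 of the FPKM in LLC alone, and 68.4% ± 8.15 and 31.6% ± 8.15 in LLC with BMSCs (mean ± SD of 3 libraries). The shares with BMSCs spread from 22.9% to 39.0% for NM_001288586, on either side of the range in LLC alone, and did not part by group (two-sided exact permutation p = 0.6).

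Mdm4 (NCBI gene 17248, minus strand of chromosome 1, 132959484 to 133030561) encodes the relative of Mdm2 that binds p53 and blocks its transactivation. Its level in replicate order was 15.8, 16.2 and 12.2 FPKM without BMSCs, against 21.1, 22.9 and 23.6 FPKM with BMSCs. Every library with BMSCs was above every library without, and LLC alone replicate 3 was the lowest. That is a log2 change of 0.60, with a standard error of 0.11 (edgeR adjusted p = 0.00229). Mdm4 has long transcripts, with a mean length of 7354 bases in the files, and the size of its rise moved with the handling of length. It was 0.48 without LLC alone replicate 3 (edgeR adjusted p = 9.54e-05) and 0.33 with the length trend removed (edgeR adjusted p = 0.000684), and was called in both. Its counts were not whole numbers in 6 of 6 libraries, so that they include reads divided with other genes.

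Mdm4 was spread over 7 transcripts, of which 2 carry the names of newly assembled transcripts in place of RefSeq ones. NM_001302804 went from 6.61 ± 2.80 to 10.5 ± 0.930 FPKM and NM_001302803 from 4.42 ± 1.08 to 7.98 ± 1.0 FPKM (mean ± SD of 3 libraries), and these carried most of the gene in both groups (two-sided exact permutation p = 0.1 for each, the smallest possible). The assignment was unstable in one library. NM_001302802 took 26.4% of the gene in LLC alone replicate 3 and at most 0.31% in each of the other libraries. The shares of NM_001302804 (p = 0.7) and NM_001302803 (p = 0.2) overlapped between the groups (two-sided exact permutation tests).

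Of the 7 target genes, Ccng1 was the only one called higher. Ccng1 (NCBI gene 12450, minus strand of chromosome 11, 40748552 to 40755311) encodes cyclin G1, which recruits a phosphatase to Mdm2 and is among the earliest described p53 targets. In order of replicate, its FPKM read 13.3, 13.2 and 12.5 without BMSCs and 18.7, 19.2 and 18.8 with them. The spread within each group was small beside the gap between them. The fitted log2 change was 0.52 with a standard error of 0.054 (edgeR adjusted p = 0.000122), with values from 0.47 to 0.54 over the alternative settings, and the change was called at an adjusted p under 0.05 in each of them.

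The promoters of the genes were searched for the p53 consensus site, in which a pair of half-sites of 10 bases stand side by side. The search used the 300 bases from 250 before to 50 after each start in the RefSeq table of GRCm38.p6, which held 11 promoters of 8 of the 10 genes (Zmat3 and Trp53inp1 are not in it). A match had at most 3 mismatches over 20 bases and kept the invariant C and G of both half-sites, and since the consensus reads the same on both strands, 1 pass covers both. Such a match was present in 3 of the 11 promoters (1 each of Ccng1, Sesn1 and Trp53), and in 1.38% of all 32851 promoters of the table. An exact half-site was present in 4 of the 11 promoters (the same 3 and that of Mdm2) and in 8.36% of all promoters, and the searches overlap because a full match can hold an exact half-site. The 3 windows are shown with those of Cdkn1a and Bbc3, 2 other p53 targets described below, because the genes with a match include higher, lower and uncalled ones. Capitals mark the 20 matched bases, and the letters run 5′ to 3′ along the gene.
Ccng1: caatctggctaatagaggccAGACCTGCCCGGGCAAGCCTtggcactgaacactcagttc
Cdkn1a: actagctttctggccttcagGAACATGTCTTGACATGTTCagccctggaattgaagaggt
Trp53: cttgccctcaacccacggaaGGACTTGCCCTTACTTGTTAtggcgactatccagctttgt
Sesn1: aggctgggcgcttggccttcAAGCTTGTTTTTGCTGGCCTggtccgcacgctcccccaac
Bbc3: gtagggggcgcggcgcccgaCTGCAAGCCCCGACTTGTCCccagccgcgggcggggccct

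The windows are chr11:40755442-40755501 on the minus strand for Ccng1, and on the plus strand chr17:29090908-29090967 for Cdkn1a, chr11:69580264-69580323 for Trp53, chr10:41887246-41887305 for Sesn1 and chr7:16309466-16309525 for Bbc3. The matches of Ccng1, at -195 to -176 from the start, and of Cdkn1a, at -51 to -32, had 1 mismatch each, which 0.067% of all promoters reach or better. The matches of Trp53, Sesn1 and Bbc3 had 3 mismatches. Cdkn1a has another promoter in the table, at chr17:29093519-29093818, which held no match, and the other promoters of Bbc3 held none. Of these 5 genes, Ccng1 and Cdkn1a were higher with BMSCs, Sesn1 and Bbc3 were lower, and Trp53 was not called. A match of letters is not a measured binding site, and no binding was measured here. The absence of a match in Mdm2, Mdm4, Gdf15, Phlda3 and Eda2r concerns only these windows.

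Zmat3 and Phlda3 were not called. Zmat3 (NCBI gene 22401, minus strand of chromosome 3, 32334792 to 32366014) encodes a zinc finger protein that binds RNA and restrains growth downstream of p53. Without BMSCs its libraries stood at 11.6, 11.6 and 13.6 FPKM in replicate order, and with BMSCs at 12.2, 13.0 and 12.9 FPKM. The groups overlapped because LLC alone replicate 3 was above all other libraries. In edgeR the log2 change was 0.025 with a standard error of 0.080 (adjusted p = 0.799). Its transcript of 7784 bases is longer than that of 94.5% of tested genes, and with the length trend removed the value turned to -0.30 without being called (edgeR adjusted p = 0.134). Its counts were fractional in 3 of 6 libraries.

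Phlda3 (NCBI gene 27280, plus strand of chromosome 1, 135766119 to 135769136) encodes a small protein that competes for membrane lipids with the kinase Akt. Its level in replicate order was 23.0, 22.8 and 28.02 FPKM without BMSCs, against 24.5, 26.5 and 24.2 FPKM with BMSCs. LLC alone replicate 3 was again the highest library, and the values without BMSCs spanned those with them. That is a log2 change of 0.0045, with a standard error of 0.092 (edgeR adjusted p = 0.969). This result depended on the length correction, because with the trend removed Phlda3 was higher by 0.20 and called (edgeR adjusted p = 0.00561). Without LLC alone replicate 3 it was 0.12 (edgeR adjusted p = 0.0822).

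The 4 genes that fell encode products of different kinds. Gdf15 (NCBI gene 23886, minus strand of chromosome 8, 70629393 to 70632456) encodes a secreted stress cytokine of the TGF-beta superfamily and showed the greatest change of the 10. In order of replicate, its FPKM read 35.8, 34.5 and 47.5 without BMSCs and 4.82, 4.78 and 4.56 with them. The lowest library of LLC alone was far above the highest with BMSCs, and LLC alone replicate 3 was above its group. The fitted log2 change was -3.08 with a standard error of 0.14 (edgeR adjusted p = 1.98e-06), greater in size than that of 96.5% of tested genes. It was -2.91 without LLC alone replicate 3 and -2.79 with the length trend removed, and was called in both. By mean FPKM, Gdf15 was the second most abundant of the 10 genes in LLC alone and the eighth with BMSCs.

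Gdf15 and the sestrin gene Sesn2, described below, are also known to respond to ATF4, the transcription factor of the integrated stress response, without p53. Of a list of 14 ATF4 stress genes, 12 were lower and 1 was higher with BMSCs, against 31.3% and 31.5% of all tested genes, and the median log2 fold change was -1.01. Atf4 went from 640 ± 62.4 to 396 ± 11.6 FPKM and Ddit3 from 261 ± 28.9 to 30.8 ± 0.988 FPKM (mean ± SD of 3 libraries), log2 fold changes of -0.71 and -3.10. Vldlr, the member of that list that was higher, was at or under 0.01 FPKM in LLC alone and at 0.25 to 0.29 FPKM with BMSCs. Atf4, Ddit3 and Vldlr are named here after their values were seen. The list itself stands outside the analysis plan and was chosen with earlier results of these data known. Its counts were not run through the alternative settings, and its share of lower genes is a description, not a test. The part of this response in the fall of Gdf15 was not tested.

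Eda2r (NCBI gene 245527, minus strand of chromosome X, 97333840 to 97377216) encodes a receptor of the TNF receptor superfamily that binds ectodysplasin A2. Without BMSCs its libraries stood at 8.13, 8.03 and 6.65 FPKM in replicate order, and with BMSCs at 2.81, 3.05 and 3.03 FPKM. The groups stayed apart although LLC alone replicate 3 was the lowest of its group. In edgeR the log2 change was -1.34 with a standard error of 0.080 (adjusted p = 7.40e-06), and ranged from -1.40 to -1.30 as single libraries were dropped. All 3 of its transcripts were lower. NM_001161433 went from 3.69 ± 0.763 to 1.33 ± 0.0850 FPKM, NM_175540 from 3.00 ± 0.573 to 1.59 ± 0.0929 FPKM and NM_001161432 from 0.913 ± 0.537 to 0.0467 ± 0.0808 FPKM (mean ± SD of 3 libraries). The share of NM_175540 was 29.1% to 49.5% in LLC alone and 52.7% to 54.5% with BMSCs (two-sided exact permutation p = 0.1, the smallest possible). NM_001161432 was listed at 0 in 2 of the 3 libraries with BMSCs.

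Sesn1 (NCBI gene 140742, plus strand of chromosome 10, 41809935 to 41908424) encodes sestrin 1, which restrains the growth kinase complex mTORC1. Its level in replicate order was 10.5, 10.7 and 10.9 FPKM without BMSCs, against 5.83, 6.92 and 7.04 FPKM with BMSCs. The 3 libraries of LLC alone nearly coincided and lay above the others. That is a log2 change of -0.73, with a standard error of 0.079 (edgeR adjusted p = 0.000141), and -0.74 with the length trend removed. Its transcripts start at separate promoters. NM_001013370, whose GENCODE start at 41887439 is that of the promoter shown above with a p53 match, went from 5.06 ± 0.981 to 3.52 ± 0.283 FPKM, and NM_001162908, which starts upstream, from 5.62 ± 0.774 to 3.08 ± 0.387 FPKM (mean ± SD of 3 libraries). Both were lower (two-sided exact permutation p = 0.1 for each, the smallest possible). The share of NM_001013370 was 39.2% to 55.7% in LLC alone and 52.1% to 54.7% with BMSCs, which overlapped (p = 0.4, same exact test).

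Trp53inp1 (NCBI gene 60599, plus strand of chromosome 4, 11156431 to 11174379) encodes a stress protein that takes part in p53-dependent cell death and in autophagy. It was the least abundant of the 10 genes, with 1.42, 1.54 and 1.41 FPKM without BMSCs and 0.65, 0.85 and 0.87 FPKM with BMSCs, in replicate order. The groups did not overlap. The fitted log2 change was -0.90 with a standard error of 0.12 (edgeR adjusted p = 0.000466) and -1.10 with the length trend removed. Its main transcript, NM_021897, went from 1.02 ± 0.206 to 0.587 ± 0.107 FPKM (mean ± SD of 3 libraries).

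**Figure D2:**
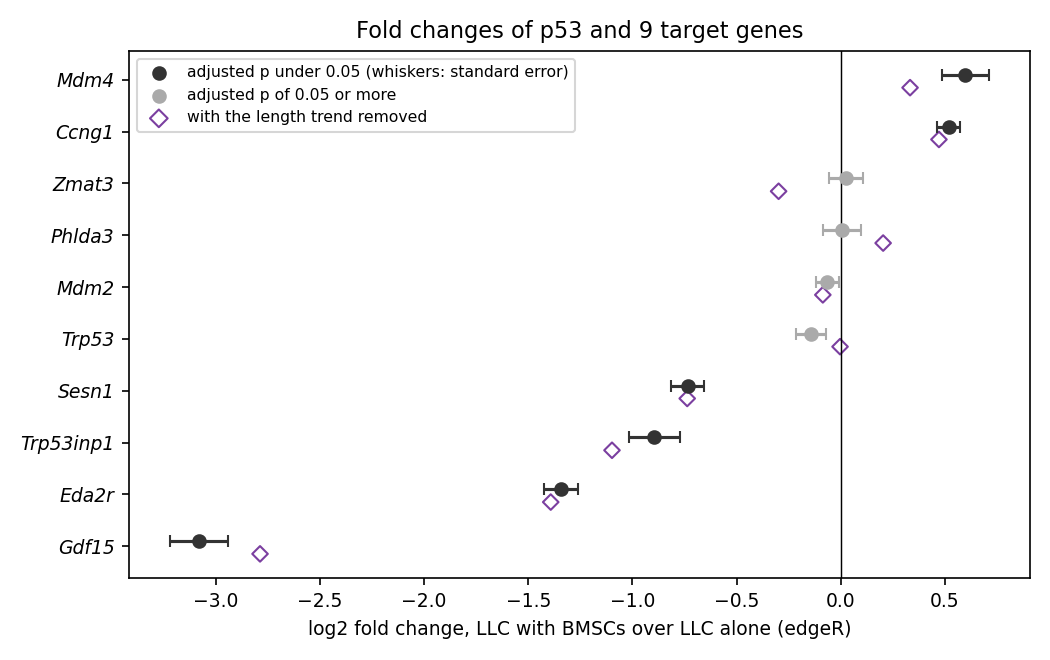
Log2 fold change of LLC with BMSCs over LLC alone (horizontal axis) for each of the 10 genes. Filled points are the edgeR estimates with standard errors, dark where the adjusted p was under 0.05, and open diamonds are the estimates with each library's trend over transcript length removed. Gdf15 lies at -3.08, Ccng1 and Mdm4 lie above 0.5, and removing the trend moves Zmat3 from 0.025 to -0.30 and Phlda3 from 0.0045 to 0.20.

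**Figure D3:**
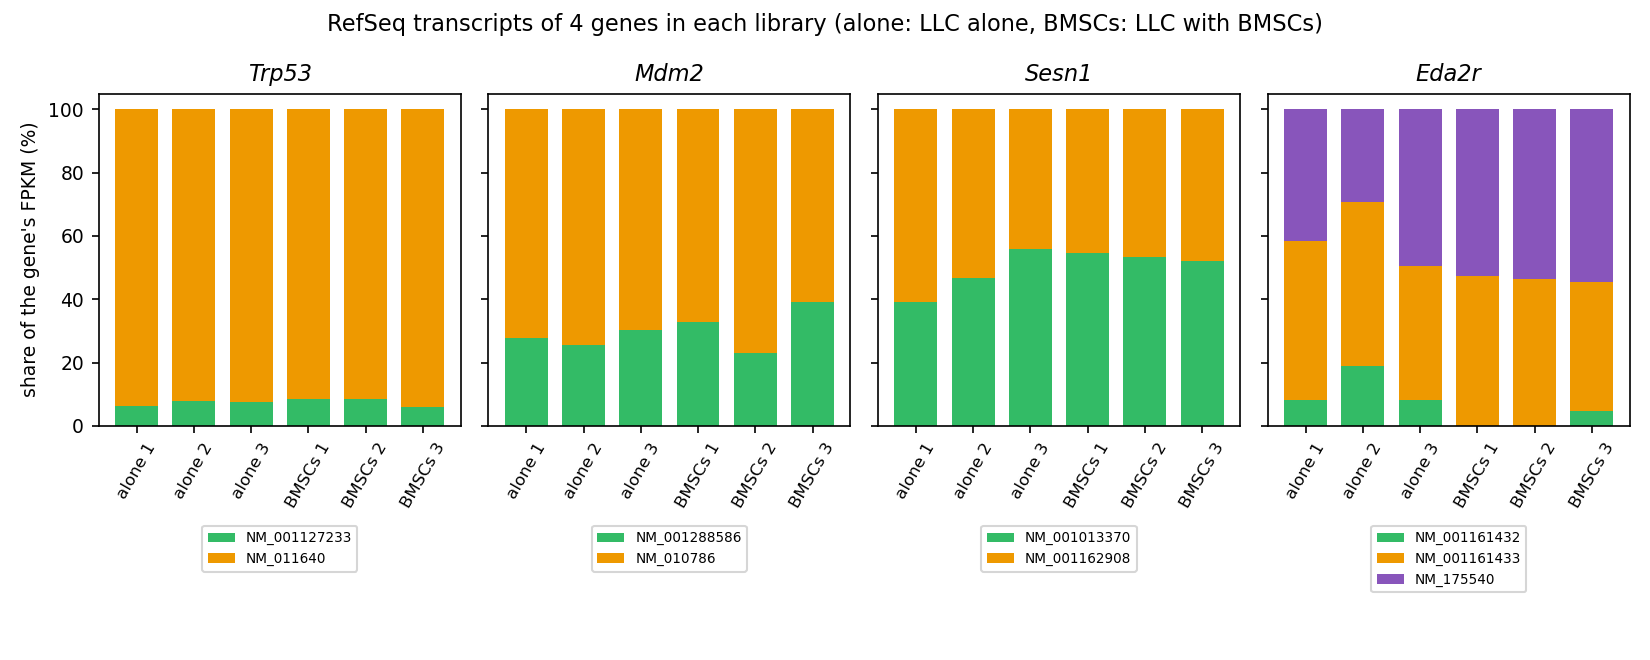
Share of a gene's FPKM (vertical axis, percent) in each of its RefSeq transcripts, for Trp53, Mdm2, Sesn1 and Eda2r in the 6 libraries. NM_011640 holds over 91% of Trp53 in every library, and NM_175540 of Eda2r holds 52.7% to 54.5% in the libraries with BMSCs.

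By mean FPKM in LLC alone, the order of the 10 genes was Trp53, Gdf15, Mdm2, Phlda3, Mdm4, Ccng1, Zmat3, Sesn1, Eda2r and Trp53inp1. In that order the ranges of Mdm4, Ccng1 and Zmat3 overlapped, and the other neighbours were apart in every library. With BMSCs the order was Trp53, Mdm2, Phlda3, Mdm4, Ccng1, Zmat3, Sesn1, Gdf15, Eda2r and Trp53inp1, and there no neighbours overlapped. For the 6 called genes the FPKM of the groups did not overlap (two-sided exact permutation p = 0.1 for each, the smallest possible), where 70.6% of all tested genes had groups apart (37.0% higher and 33.7% lower with BMSCs). Exons of none of the 10 genes overlap exons of another gene in GENCODE M21.

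The wider set of p53 targets was also split. A list of 55 other genes known as direct targets gave 54 matches and 53 tested genes, with 18 higher, 20 lower and 15 not called. These are 34.0% and 37.7%, against 31.5% and 31.3% of all tested genes, and the median log2 fold change was 0.073, against 0.01 for all tested genes. By size, 9 of the 53 were higher and 4 lower by a log2 fold change of 1 or more, where 8.65% and 7.17% of all tested genes were. The share of large falls was near that of all tested genes. The 9 large rises include Pmaip1, Plk2 and Igfbp3, which had 3 counts or fewer in every library of LLC alone. These passed the filter only through the libraries with BMSCs, which fixed their direction, so the share of large rises is not read against the background. The list held called genes in both directions, at the adjusted p alone in shares a little above those of all tested genes.

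Of the genes for cell cycle arrest, Cdkn1a, which encodes the kinase inhibitor p21, was higher with BMSCs. Its FPKM was 13.4, 13.6 and 15.01 without BMSCs and 38.2, 36.0 and 34.9 with BMSCs, in replicate order, a log2 change of 1.35 ± 0.071 in edgeR (SE, adjusted p = 3.95e-06). Gadd45a, which encodes a stress protein that binds p21 and PCNA, moved the other way. It had 239, 237 and 298 FPKM without BMSCs and 39.1, 40.5 and 41.8 FPKM with BMSCs, in replicate order, a log2 change of -2.69 ± 0.10 in edgeR (SE, adjusted p = 9.37e-07). The anti-proliferative gene Btg2 was low in both groups, at 0.783 ± 0.0611 and 0.823 ± 0.110 FPKM (mean ± SD of 3 libraries), and was not called. Plk2, a polo-like kinase gene, had at most 1 count in each library of LLC alone and 141 to 154 counts with BMSCs, and was at least 45.4-fold higher against a floor of 3 counts per library.

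Of the genes for apoptosis, Bax and Bbc3 fell and the death receptor gene Fas rose. Bax, which encodes a pore-forming protein of the mitochondrial membrane, had 120.2, 120.4 and 155 FPKM without BMSCs and 75.1, 82.5 and 85.3 FPKM with BMSCs, in replicate order, with a log2 change of -0.72 ± 0.11 in edgeR (SE, adjusted p = 0.000695). This value was -0.59 without LLC alone replicate 3 and -0.40 with the length trend removed, and was called in both. Bbc3, which encodes the BH3-only protein Puma, went from 6.39 ± 0.739 to 2.74 ± 0.411 FPKM (mean ± SD of 3 libraries), with a log2 fold change of -1.26. The groups did not overlap for either gene. Fas went from 0.53, 0.49 and 0.87 FPKM to 4.89, 5.84 and 5.41 FPKM, with a log2 change of 3.12 ± 0.19 in edgeR (SE, adjusted p = 8.98e-06). Pmaip1, which encodes the BH3-only protein Noxa, had no counts in LLC alone and 10 to 18 counts with BMSCs, at least 3.97-fold against the floor of 3 counts per library.

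Sesn2, which encodes sestrin 2, went from 49.1 ± 4.20 to 20.9 ± 2.03 FPKM (mean ± SD of 3 libraries), a log2 fold change of -1.25, and thus moved in the same direction as Sesn1. Rrm2b, which supplies nucleotides for repair, had a log2 fold change of -0.39 (edgeR adjusted p = 0.00447). Tigar, a regulator of glycolysis, was at -0.18 (edgeR adjusted p = 0.0186), and lost the call without LLC alone replicate 1 (edgeR adjusted p = 0.0553) and without LLC with BMSCs replicate 2 or 3 (0.0732 and 0.0884, same test). It also lost the call with the closest libraries summed (edgeR adjusted p = 0.164). Ppm1d, the phosphatase gene that ends p53 signalling, was at -0.067 (edgeR adjusted p = 0.358) and was not called. Pmm1, a phosphomannomutase gene, went from 48.7 ± 6.28 to 21.03 ± 0.753 FPKM (mean ± SD of 3 libraries), a log2 fold change of -1.23.

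Among the 4 greatest rises of targets with at least 100 normalized counts were also genes for secreted proteins. Thbs1, which encodes thrombospondin 1, went from 1.65 ± 0.358 to 6.56 ± 0.111 FPKM and the cytokine gene Lif from 0.953 ± 0.0907 to 3.39 ± 0.206 FPKM (mean ± SD of 3 libraries). Their log2 fold changes were 1.97 and 1.81. In both genes each library with BMSCs was above each library without. The stromal and neutrophil marker sums given above, and 6 of 8 tested macrophage markers, were higher in the same libraries. Their part in the rises of Thbs1 and Lif, and that of inputs besides p53, was not tested.

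**Figure D4:**
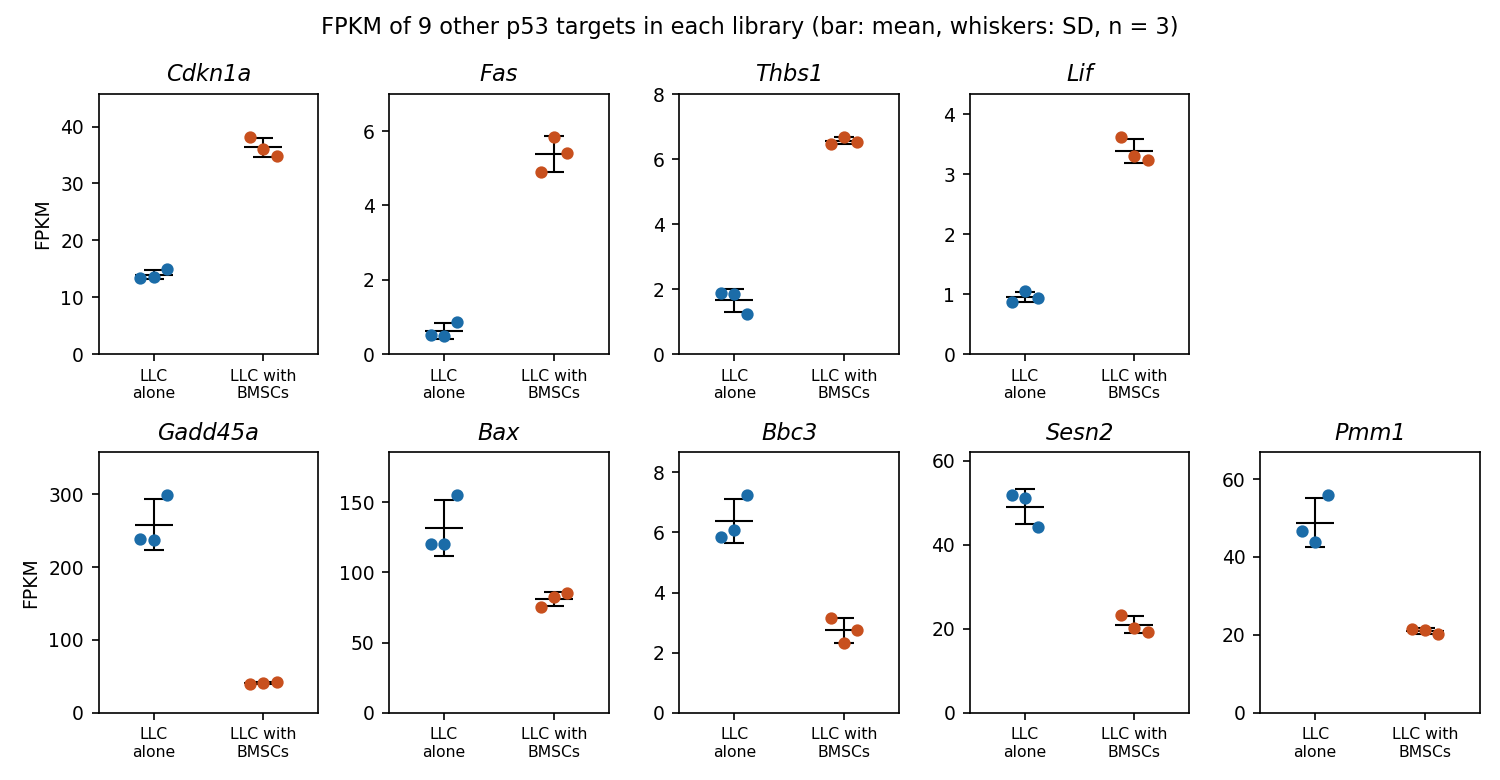
FPKM (vertical axis, from 0, a scale for each gene) of 9 other p53 targets in the 3 libraries of LLC alone (blue) and the 3 of LLC with BMSCs (orange), with the mean (bar) and SD (whiskers). Cdkn1a, Fas, Thbs1 and Lif are higher and Gadd45a, Bax, Bbc3, Sesn2 and Pmm1 lower with BMSCs, with no overlap of the groups.

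Genes that act on p53 showed mostly small differences. Of 43 written regulators and relatives, 42 were found and 39 passed the filter, with 13 higher and 11 lower, or 33.3% and 28.2% against 31.5% and 31.3% of all tested genes. The count of lower genes was not stable, at 7 when LLC alone replicate 1 or 2 was dropped, 6 for LLC with BMSCs replicate 2 and 7 for its replicate 3. Lower calls over all tested genes also fell, from 4183 to 3840, 3958, 3593 and 3581 in the same order. The checkpoint kinase gene Chek2, whose counts were fractional in 6 libraries, had 3.95, 3.75 and 4.41 FPKM without BMSCs and 6.08, 6.06 and 5.90 FPKM with BMSCs, in replicate order, with a log2 change of 0.56 ± 0.085 in edgeR (SE, adjusted p = 0.000831). Atm, the kinase gene of the response to double-strand breaks, was at 6.33, 6.45 and 3.55 FPKM and at 6.59, 6.20 and 6.24 FPKM, and was not called (log2 fold change 0.20, edgeR adjusted p = 0.413). Its low value in LLC alone replicate 3 set the estimate, which was -0.028 without that library. With the length trend removed Atm stood at -0.16 and was called lower (edgeR adjusted p = 0.0385).

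Cdkn2a, the locus of p16Ink4a and of the Mdm2 inhibitor p19Arf, was listed at 0 in the 3 libraries of LLC alone. In LLC with BMSCs it had 31 to 39 counts (1.03, 0.83 and 0.95 FPKM), at least 10.7-fold higher against the floor of 3 counts per library. The stromal and neutrophil marker sums, and 6 of 8 tested macrophage markers, were higher in the same libraries. The part of such cells in the counts of Cdkn2a, Plk2, Pmaip1 and Fas was not tested. The p53 relatives Trp63 and Trp73 were at or under 0.03 FPKM in every library and were not tested. Wrap53, the neighbour of Trp53, had a log2 fold change of 0.19 (edgeR adjusted p = 0.0337) and lost its call in 10 of 18 alternative settings, with adjusted p from 0.000895 to 0.167 over the fitted alternatives. Those included leaving out LLC alone replicate 1 (0.15, adjusted p = 0.122) or replicate 2 (0.20, adjusted p = 0.0692), and LLC with BMSCs replicate 1 (0.16, adjusted p = 0.0934), replicate 2 (0.21, adjusted p = 0.0609) or replicate 3 (0.20, adjusted p = 0.0797), all with edgeR.

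**Figure D5:**
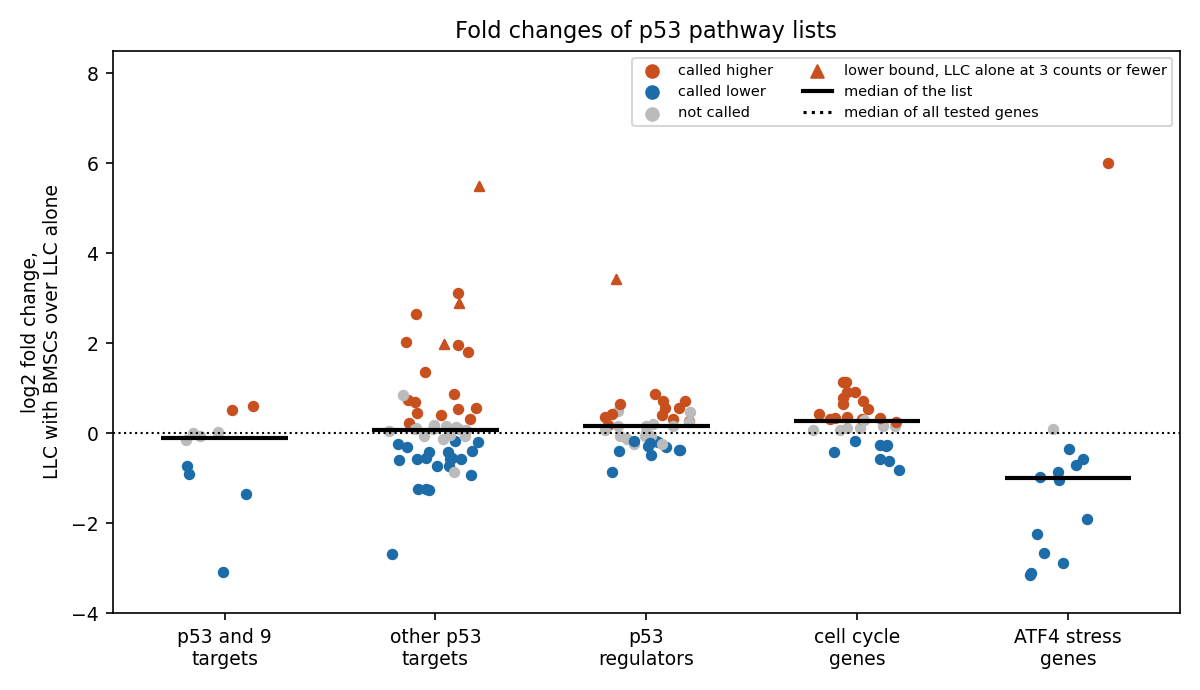
Log2 fold change of LLC with BMSCs over LLC alone (vertical axis) for the tested genes of 5 lists. Each point is a gene, coloured by its call, triangles are lower bounds for genes at 3 counts or fewer in every LLC alone library, thick bars are list medians and the dotted line is the median of all tested genes. The medians lie at -0.10 for Trp53 and the 9 other genes, 0.073 for other targets, 0.15 for regulators, 0.27 for cell cycle genes and -1.01 for ATF4 stress genes.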

How the data were processed

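The 6 RNA sequencing libraries were put in groups of 3 by the sample titles. According to the methods, poly-A RNA was sequenced as paired ends on the BGISEQ-500, while the labels name Illumina protocols. The authors deposited estimated counts (expected counts, not normalized), FPKM values and lengths in bases per gene and per transcript. The submitters' processing notes list HISAT, StringTie, Cufflinks, GATK and the build mm8 without roles, and the program behind the counts is not given in the sources used here. Reads shared between genes are divided in such counts, and 21.9% to 23.2% of listed genes had a fractional count. Whether strand was used is not stated. The FPKM table of the whole series equalled the single-library values within 0.005.

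Estimated counts were rounded and tested with edgeR 4.0.16 in R 4.3.3 (TMM, default filter on low counts, quasi-likelihood test, Benjamini-Hochberg adjustment over all 13353 tested genes, threshold 0.05). Standard errors are the log2 fold change over the square root of the statistic. Normalized counts are counts scaled to the mean effective library size. The length trend was a lowess curve (span 0.3) of each library's log2 deviations over length, entered as an offset. Counting floors of 3 counts cover counting error only. Scripts were tested on simulated data.

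The named genes were the 10 members, 17 genes set by name, and the 4 greatest rises and 4 greatest falls among other p53 targets with an adjusted p under 0.05 and at least 100 normalized counts, of which 1 is not reported here. Members and lists were chosen with earlier results of these data known. Of the written genes, 3 regulators were matched by NCBI gene ID because their symbols have changed. Gene positions are from GENCODE M21 on GRCm38, and promoters from RefSeq on GRCm38.p6. The alternatives were DESeq2 1.42.0, other scalings and filters, limma 3.58.1 on log2(FPKM + 1) and log2(FPKM + 0.1), each library left out, a replicate block, the length trend removed, close libraries summed, and a fold threshold. The main fit did not pair samples by replicate number. Correlations of same-numbered deviations were 0.0762, -0.106 and 0.0572. These deviations are taken from means of 3 libraries, so they cannot exclude a pairing or a shared batch.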

Additional observations from a re-analysis of the deposited data

How the results depend on the processing

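With 18 alternative settings, the counts of higher and lower genes among the 10 (2 and 4) stayed at 2 to 3 and 4 to 5, with Phlda3 added by removing the length trend and Trp53 by leaving out LLC with BMSCs replicate 1, except when a log2 fold change of at least 1 was also required. That threshold left 0 and 2 of these genes, 9 and 4 of the other p53 targets (18 and 20 without it), 1 and 0 of the regulators (13 and 11), 2 and 0 of the cell cycle genes (15 and 8), and 1155 and 957 of all tested genes (4210 and 4183). With the closest libraries of each group summed, 5 regulators and 4 cell cycle genes were lower, in place of 11 and 8. All tested genes then had 3301 lower, in place of 4183. That setting has fewer libraries, and the cause was not tested. With each library left out in turn, 6 to 13 regulators were lower, where 3581 to 4539 of all tested genes were. With the replicate number as a block, the 10 genes again had 2 higher and 4 lower and all tested genes 4161 and 4058, Wrap53 lost its call (edgeR adjusted p = 0.0681) and no other named gene changed its call. Signs turned in uncalled genes. Zmat3 was at -0.0060 with upper-quartile scaling, -0.30 with the length trend removed, -0.030 with libraries summed and -0.018 to 0.11 with each library left out. Phlda3 was at -0.027 with upper-quartile scaling, -0.052 with libraries summed and -0.049 to 0.12 with each library left out. Btg2 was at -0.033 to 0.155 and Atm at -0.028 to 0.33 with each library left out, and Atm at -0.16 with the length trend removed. Genes at or under 3 counts, such as Pmaip1 and Cdkn2a in LLC alone, are limited by depth.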

Other observations

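Cell cycle genes that are held down through p21 when p53 is active did not move together. Of 30 such genes 15 were higher with BMSCs, 8 lower and 7 not called, or 50% and 26.7% against 31.5% and 31.3% of all tested genes. The median of the 30 lay at 0.27 (log2). Without LLC alone replicate 3, 21 were higher and 8 lower, where 4736 and 4539 of all tested genes were. With the length trend removed, 19 were higher and 7 lower, where 4758 and 4573 of all tested genes were. The number of uncalled genes thus depended on that library and on transcript length. The genes named here were chosen after their values were seen. The mitotic kinase gene Aurkb went from 31.3, 29.9 and 31.9 FPKM without BMSCs to 72.7, 70.03 and 66.4 FPKM with BMSCs, in replicate order, a log2 fold change of 1.15. The proliferation marker Mki67 was at 38.6, 42.1 and 23.2 FPKM and at 86.0, 70.1 and 76.3 FPKM, with a log2 fold change of 1.14. Its transcript is long, at 10098 bases, and LLC alone replicate 3 was its lowest library. The 8 lower genes included Mcm2 to Mcm7, which encode the replicative helicase, with log2 fold changes from -0.81 for Mcm2 to -0.27 for Mcm6. The 7 that were not called with all 6 libraries included the mitotic genes Ccnb1, Cdk1 and Cdc20.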
